A study of Mus musculus with 9 samples.

Results

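The kallikrein genes described here are 7 neighbours on mouse chromosome 7: Klk14, Klk13, Klk11, Klk10, Klk8, Klk7 and Klk6, in that order along the chromosome. They were taken by gene symbol from the expression tables of 9 mammary tumours and are 7 of the 18484 genes listed there and 7 of the 19 genes with a Klk symbol. They were chosen by their read counts in these same tumours, because a block of neighbours stood high in 2 tumours with a highly amplified Neu locus, so their levels are given as a description and not as a test.

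The tumours arose in BlgCre-NeuKI mice. NeuKI is an activated rat Neu sequence knocked into the mouse Erbb2 locus behind a floxed stop cassette, and the beta-lactoglobulin promoter drives Cre mainly in luminal cells of the mammary gland, and every mouse carried both alleles, so the groups differ in the tumour's amplification and histology and in whether the mouse had been pregnant. The 5 high-amplified tumours were all adenocarcinomas of no special type, AC(NST). MS1163.1, MS1163.2 and MS1213.1 grew in virgin mice, MS1155.3 and MS1218.2 in parous ones. The 3 not/low-amplified tumours all grew in parous mice: MS1166.1 was an AC(NST), while MS1349.1 and MS1210.1 were adenosquamous carcinomas (ASQC). The 9th tumour, MS1156.1, was a sarcoma of a parous mouse. By its labels, the MS1163 pair came from 1 mouse. The mice were of mixed genetic background, and the study records a lower tumour purity for MS1218.2 and, for MS1218.2 and MS1213.1, amplification results that differed between its methods.

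Kallikreins are secreted serine proteases of the trypsin and chymotrypsin type, made as inactive precursors and switched on by trimming of a short leading peptide. In stratified epithelia such as the epidermis, several of them form a cascade that cuts the proteins holding the outermost cells together, and inhibitors of the Spink family hold that cascade in check. Klk6 and Klk8 are also known from the nervous system. In rodents, a large subgroup named Klk1b is made mostly by salivary glands.

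On GRCm38 the 7 genes lie on the plus strand between chr7:43690418 (the start of Klk14) and chr7:43832030 (the end of Klk6), within 141.6 kb of a cluster of 539.2 kb. Klk10, the most abundant of them, occupies chr7:43781035-43785410 and Klk8 chr7:43797577-43803826. An antisense gene on the minus strand, 2310002F09Rik, runs from chr7:43695209 to chr7:43797958 and shares 287 exonic bases with Klk14 and 382 with Klk8. It is not among the genes counted, and the sources used here do not say whether strand was used in the counting, so reads from it cannot be told apart from reads of Klk14 and Klk8 in those stretches.

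RefSeq (GRCm38.p6) promoter sequence, 250 bases before to 50 after the start, was found for all 7 genes. Those of Klk10, Klk14 and Klk8 are shown because Klk10 was the most abundant gene and because Klk14 and Klk8 followed each other most closely across the tumours. Capitals mark matches to AGAACA, a steroid receptor half-site, or to GGGCGG, a GC box, on either strand, and the sequences run 5′ to 3′ on the plus strand.
Klk10, chr7:43780804-43781103: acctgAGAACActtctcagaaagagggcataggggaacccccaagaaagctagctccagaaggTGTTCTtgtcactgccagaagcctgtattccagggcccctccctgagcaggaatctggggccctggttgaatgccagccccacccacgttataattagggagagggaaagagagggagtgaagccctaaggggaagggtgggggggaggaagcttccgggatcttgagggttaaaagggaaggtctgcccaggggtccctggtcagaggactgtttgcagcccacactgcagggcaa
Klk14, chr7:43690168-43690467: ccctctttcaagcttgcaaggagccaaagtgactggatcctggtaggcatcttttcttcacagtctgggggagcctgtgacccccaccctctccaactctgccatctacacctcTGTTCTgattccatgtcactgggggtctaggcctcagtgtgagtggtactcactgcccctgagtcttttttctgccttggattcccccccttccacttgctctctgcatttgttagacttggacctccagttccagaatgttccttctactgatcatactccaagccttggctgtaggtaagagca
Klk8, chr7:43797327-43797626: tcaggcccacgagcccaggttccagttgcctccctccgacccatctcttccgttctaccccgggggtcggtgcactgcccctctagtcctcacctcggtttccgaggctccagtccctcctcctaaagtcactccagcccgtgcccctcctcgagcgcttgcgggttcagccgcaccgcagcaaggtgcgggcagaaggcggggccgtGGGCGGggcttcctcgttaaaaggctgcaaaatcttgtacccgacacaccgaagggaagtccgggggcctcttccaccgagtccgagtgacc

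Klk11 and Klk6 have 2 listed starts each, so 9 promoter windows were searched in all. AGAACA was found in windows of 4 of the 7 genes (Klk14, Klk11, Klk10 and Klk6) and in 18.9% of all 32544 promoters of that length. GGGCGG was found in windows of 3 genes (Klk8, Klk7 and Klk6) and in 35.9% of all promoters. TATAAA (held by 13.6% of all promoters), TGANTCA (an AP-1 site, 7.79%), AGGTCA (a nuclear receptor half-site, 16.2%) and AACCGGTT (a Grainyhead site, 0.147%) were not found in any window of the 7 genes. No matches overlapped each other. The window of Klk8 held 65.3% G and C, against a median of 53.0% over all promoters, and the other 8 windows held between 52.0% and 58.0%. Klk14 and Klk8, the closest pair by level, share no match.

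The reads counted on genes numbered between 12501225 and 18327792 in the high-amplified tumours, between 15265197 and 23912429 in those of the not/low-amplified group, and 13058738 in the sarcoma. Erbb2 itself, the locus that defines the groups, stood between 5284 and 105019 normalized counts in the high-amplified tumours and between 1532 and 2783 in the not/low-amplified tumours, so the groups did not overlap. Normalized counts are the read counts divided by 1 size factor per tumour, and a count of 0 reads allows up to 3 reads, or between 2.11 and 4.19 normalized counts depending on the tumour. This limit covers counting error only. With 1 library per tumour, fewer cells of a type and less RNA per cell cannot be told apart.

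Reads on the 7 genes varied widely within each amplification group, a spread that the choice of the genes fixed in part for the high-amplified tumours. They took 6352 and 2925 reads in MS1213.1 and MS1155.3, the tumours for which they were chosen, and 111, 24 and 617 in MS1163.1, MS1163.2 and MS1218.2. The ASQC tumours MS1210.1 and MS1349.1 held 20896 and 8108 reads, the not/low-amplified AC(NST) MS1166.1 held 497, and the sarcoma 906. Both groups therefore held tumours with many and with few kallikrein reads. The share of the whole library was 0.0882% in MS1210.1, the highest, and 0.000192% in MS1163.2, the lowest.

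**Figure D1:**
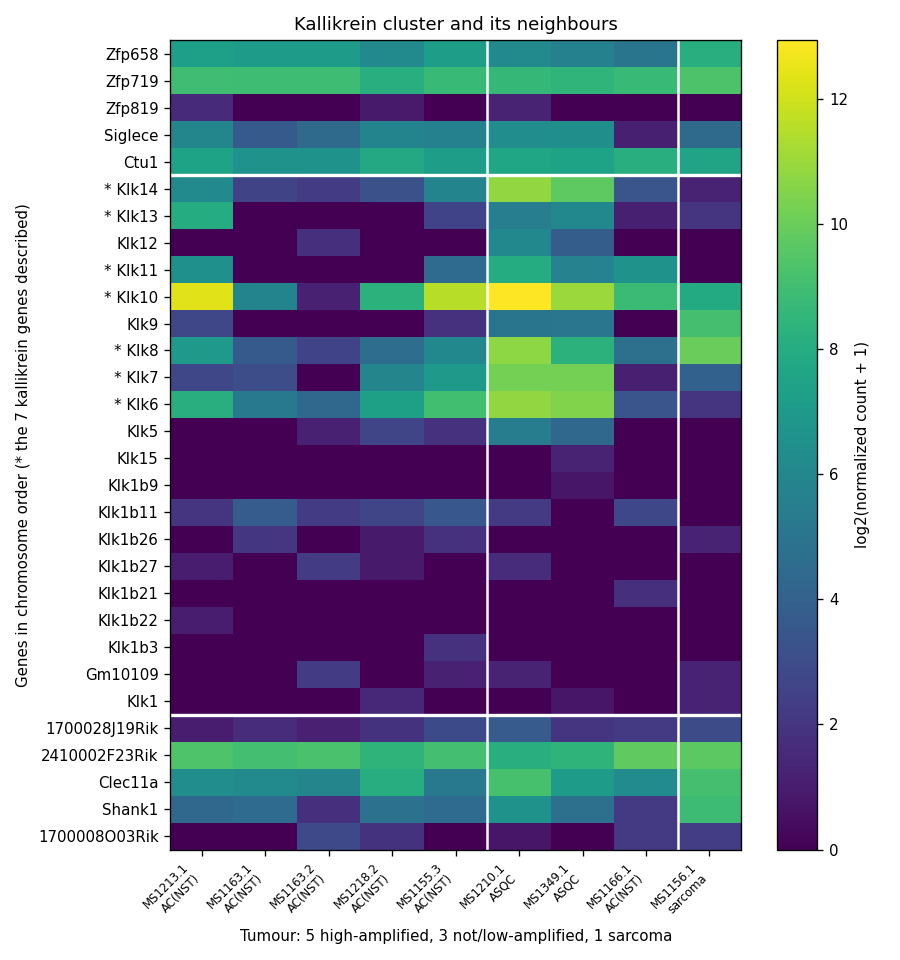
Level of every gene of the kallikrein cluster and of 5 neighbours on each side, in chromosome order (rows) and by tumour (columns), as log2(normalized count + 1). The 7 genes described are starred and the white lines bound the cluster. The bright block from Klk14 to Klk6 is strongest in the 2 ASQC tumours, weaker and centred on Klk10 in MS1213.1 and MS1155.3, and in the sarcoma it lies mainly on Klk10, Klk9 and Klk8.

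Klk10, a secreted protease known in epithelia, was the leading gene. Among the high-amplified tumours it stood at 5285 normalized counts in MS1213.1, 2972 in MS1155.3, 317 in MS1218.2, 55.6 in MS1163.1 and 1.24 in MS1163.2. Of the not/low-amplified tumours, MS1166.1 held 449.6, MS1349.1 held 1997 and MS1210.1 held 7825. MS1213.1 and MS1155.3 were 16.7 and 9.39 times the highest of the other 3 high-amplified tumours, yet MS1163.2 held a single read. Both of them lay above the ASQC tumour MS1349.1 and below the ASQC tumour MS1210.1. High-amplified tumours averaged 1726 ± 2344 (SD, n = 5) and the others 3424 ± 3889 (SD, n = 3), so that the spread within each group exceeded its mean.

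Per kilobase of exon, Klk10 was the highest of the 7 genes in 7 of the 8 epithelial tumours, with 5699 normalized counts per kb in MS1210.1 and 3849 in MS1213.1. The exception was MS1163.2, where Klk6 led with 13.1 per kb from 16 reads. Klk10 took 86.4% of the reads on the 7 genes in MS1213.1 (95% Wilson interval 85.5 to 87.2) and 78.9% in MS1155.3 (77.4 to 80.3). It took 53.2% in MS1210.1 (52.6 to 53.9) and 33.7% in MS1349.1 (32.7 to 34.8). The rise in MS1213.1 and MS1155.3 was thus more a rise of Klk10 than in either ASQC tumour, in which the other 6 genes held a larger part. MS1166.1 was also mostly Klk10, at 76.1% of 497 reads.

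**Figure D2:**
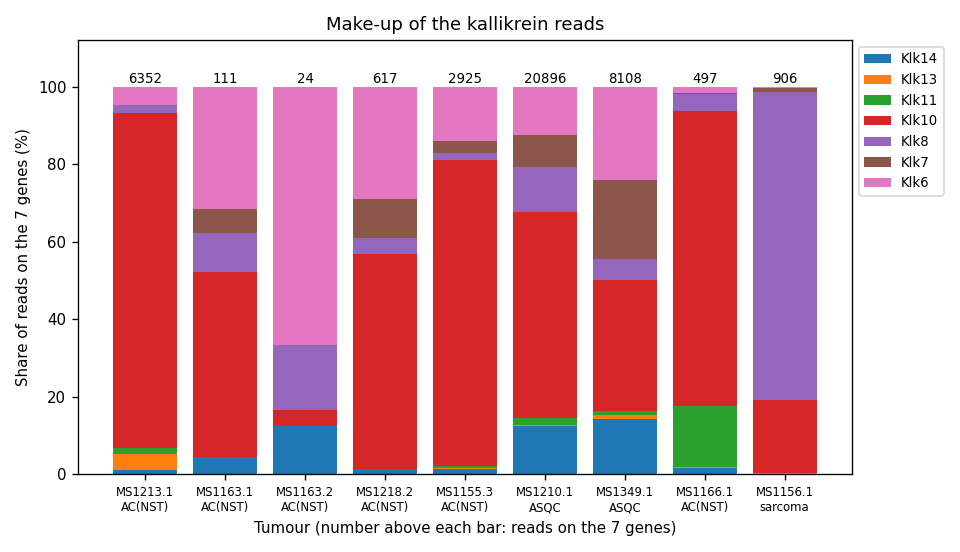
Share of the reads on the 7 kallikrein genes that fell on each gene (percent, stacked), by tumour, with the number of reads above each bar. Klk10 fills most of the bar in MS1213.1 (86.4%), MS1155.3 (78.9%) and MS1166.1 (76.1%), Klk6 most of the bar of 24 reads in MS1163.2, and Klk8 most of the sarcoma's (79.2%).

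Klk14, a trypsin-like kallikrein of the skin that can activate others of the cascade, stood at 71.3 normalized counts in MS1213.1, 55.4 in MS1155.3, 8.33 in MS1218.2, 5.25 in MS1163.1 and 3.73 in MS1163.2. It reached 1833 in MS1210.1 and 851 in MS1349.1 but 9.52 in MS1166.1. MS1166.1, the only AC(NST) of its group, lay among the high-amplified tumours, while both ASQC tumours held at least 11.9 times the level of every AC(NST).

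Klk7, a chymotrypsin-like kallikrein that cuts the bonds between the outermost cells of the skin, was at 5.78, 7.35, 0, 57.4 and 122 normalized counts in MS1213.1, MS1163.1, MS1163.2, MS1218.2 and MS1155.3, and at 1203, 1211 and 1.19 in MS1210.1, MS1349.1 and MS1166.1. The ASQC tumours held at least 9.83 times the level of every AC(NST). Klk7 was the member that did not follow the rule's pattern. It was high in MS1155.3 (95 reads), while MS1213.1 (6 reads) lay below MS1218.2 (62 reads), although the genes on both sides of it were raised in MS1213.1. MS1163.1 held 7 reads, too close to MS1213.1 for an order to be read.

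Klk6, a trypsin-like kallikrein known in brain, was at 287, 36.7, 19.9, 165 and 525.5 normalized counts in MS1213.1, MS1163.1, MS1163.2, MS1218.2 and MS1155.3. MS1166.1 held 9.52, against 1428 in MS1349.1 and 1842 in MS1210.1. The lower ASQC tumour was 2.72 times the highest AC(NST), and MS1166.1 lay below all 5 high-amplified tumours. Within the high-amplified group, MS1213.1 held 1.74 times and MS1155.3 3.19 times the highest of the other 3.

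Klk8, also named neuropsin and found in skin and hippocampus, was at 122, 11.5, 4.97, 24.1 and 65.7 normalized counts in MS1213.1, MS1163.1, MS1163.2, MS1218.2 and MS1155.3. MS1166.1 held 26.2, against 320.0 in MS1349.1 and 1689 in MS1210.1. The order of the tumours was the same as for Klk14, and again the ASQC tumours lay above every AC(NST), at 2.62 times the highest or more.

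Klk13 and Klk11 were the least abundant. Klk13 was at 255 normalized counts in MS1213.1, 5.15 in MS1155.3 and 0 in each of MS1163.1, MS1163.2 and MS1218.2, and at 45.7, 64.3 and 1.19 in MS1210.1, MS1349.1 and MS1166.1. It was the only one of the 7 genes with its highest level in a high-amplified tumour, and in MS1155.3 the level rested on 4 reads. Klk11 was at 90.5 in MS1213.1, 21.9 in MS1155.3 and 0 in the other 3 high-amplified tumours, and at 259.5, 51.9 and 94.0 in MS1210.1, MS1349.1 and MS1166.1. Klk11 was the single member in which MS1166.1 lay above all 5 high-amplified tumours, though only just above MS1213.1.

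**Figure D3:**
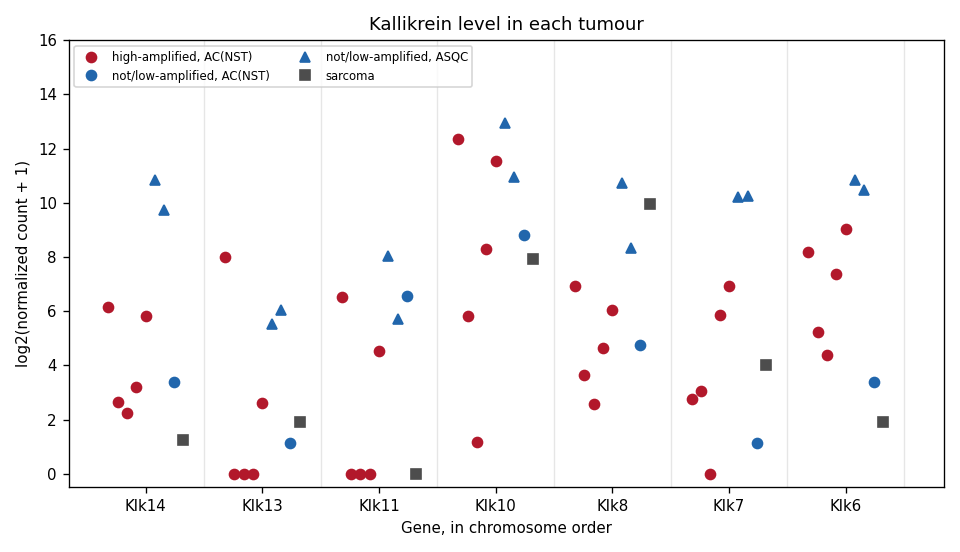
Level of each of the 7 kallikrein genes in each tumour, as log2(normalized count + 1), with genes in chromosome order and 1 point per tumour. Within each gene the points run in the order MS1213.1, MS1163.1, MS1163.2, MS1218.2, MS1155.3, MS1210.1, MS1349.1, MS1166.1, MS1156.1. The ASQC tumours (triangles) lie above every AC(NST) (circles) for Klk14, Klk8, Klk7 and Klk6 and overlap them for Klk13, Klk11 and Klk10.

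Across the 3 labels of the tumours, histotype was the one by which several of the genes did not overlap. Both ASQC tumours lay above all 6 AC(NST) for 4 of the 7 genes (Klk14, Klk8, Klk7 and Klk6), an arrangement that 5.3% of the 14007 genes tested showed in that direction and 4.98% in the other. No member separated the high-amplified from the not/low-amplified tumours, where 7.55% of genes were higher and 8.04% lower in every high-amplified tumour, and none separated virgin from parous mice (3.89% higher and 5.35% lower in every virgin tumour). As the genes were chosen for a split within the high-amplified group, nothing on amplification is read from that overlap. Nor is anything on parity: MS1213.1 was virgin and MS1155.3 parous. For the 6 members raised in both, the choice of genes thus fixed the overlap by parity in advance. Both ASQC tumours were also not/low-amplified and parous, so ASQC histology, low amplification and parity cannot be told apart in them, and MS1166.1 is the only tumour that differs in histotype from the other not/low-amplified ones.

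The question of whether expression followed amplification of the Neu locus was the study's main comparison. High-amplified tumours had lower fitted levels for 6 of the 7 genes, from a log2 difference of -4.94 ± 1.34 (SE) for Klk14 to -0.97 ± 1.60 for Klk10, with Klk13 at 0.50 ± 2.01. The median over the 7 genes was -2.54, beside 0.02 over all 14007 genes tested. With edgeR's quasi-likelihood test (Benjamini-Hochberg adjustment, called at an adjusted p under 0.05 and over 2-fold) 0 of the 7 genes were called, beside 0.921% of all genes (0.435% higher and 0.485% lower), and 3 had an unadjusted p under 0.05, as had 3199 of the 14007 genes. DESeq2 called Klk14 and Klk8 as lower, beside 10.4% of all genes (5.94% higher and 4.51% lower). All 7 genes passed the filter of at least 10 reads in at least 3 of the 8 tumours, Klk13 through MS1213.1 and the 2 ASQC tumours alone.

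Within AC(NST) tumours alone, with MS1166.1 as the single not/low-amplified tumour and its spread assumed to be like that of the others, the direction turned for Klk10, Klk8 and Klk6, at log2 differences of 1.92 ± 2.82, 0.78 ± 1.57 and 4.40 ± 2.05 (SE). Klk11 stayed lower in the high-amplified tumours at -2.07 ± 2.15, and the other 3 genes had too few reads to enter that fit. None was called there, where 7 of all 13575 genes tested were called higher and 33 lower. In the values themselves, MS1166.1 lay within the range of the 5 high-amplified tumours for 5 of the 7 genes. Without MS1210.1, Klk10 also turned, to 0.51 ± 1.86.

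By histotype, all 7 genes had higher fitted levels in the 2 ASQC than in the 6 AC(NST). The log2 differences were 5.70 ± 0.96 (SE) for Klk14, 5.22 ± 1.32 for Klk7, 4.55 ± 0.94 for Klk8 and 3.22 ± 1.09 for Klk6, and smaller beside their errors for Klk11 (2.18 ± 1.68), Klk10 (1.68 ± 1.63) and Klk13 (0.31 ± 2.18). The median was 3.22, beside -0.08 over all genes. EdgeR called 0 of the 7 (0.236% of all genes were called, 0.221% higher and 0.0143% lower), with 4 at an unadjusted p under 0.05 beside 1221 of all genes, and DESeq2 called Klk14 and Klk8 as higher (3.34% of all genes, 1.94% higher and 1.4% lower) while giving no adjusted p for Klk13 and Klk7. Without a filter on low counts edgeR also called Klk14 and Klk8, beside 167 genes called higher and 4 lower of 18358. Without MS1210.1 the differences of Klk8, Klk10 and Klk11 fell to 2.88, 0.37 and 0.55.

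By parity, tumours of virgin mice had lower fitted levels for 6 of the 7 genes, from -6.81 ± 2.04 (SE) for Klk7 to -0.58 ± 1.70 for Klk10, with Klk13 at 1.87 ± 1.89. EdgeR called 0 of the 7 and 0.0% of all genes, with 1 member at an unadjusted p under 0.05 beside 1984 of all genes, and DESeq2 called Klk7 as lower (3.45% of all genes, 0.636% higher and 2.82% lower). Klk7 lay between 0 and 7.35 normalized counts in the 3 virgin tumours and between 1.19 and 1211 in the 5 parous tumours. MS1166.1, at 1.19, was the parous tumour within the virgin range. The tumours for which the genes were chosen, MS1213.1 and MS1155.3, were one virgin and one parous.

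**Figure D4:**
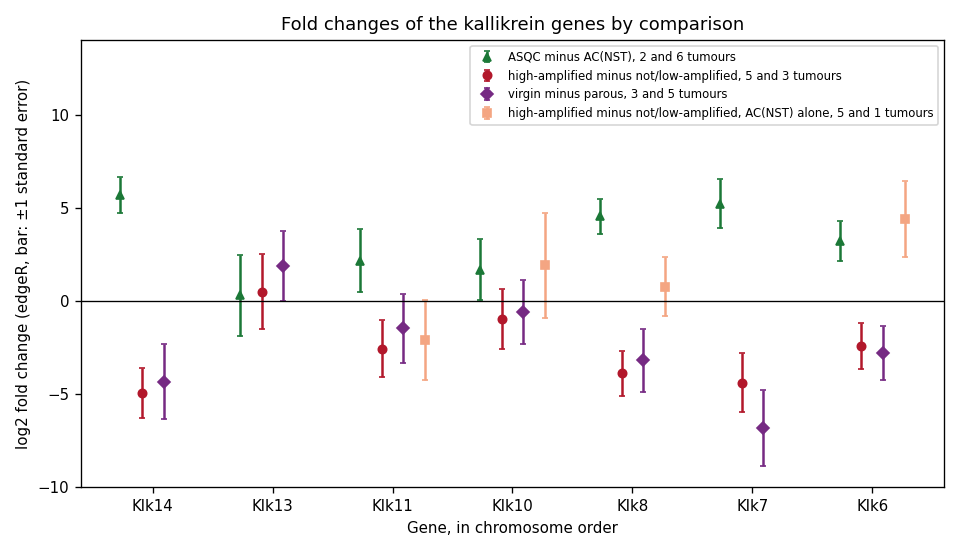
Log2 fold change of each kallikrein gene from edgeR with 1 standard error, by histotype, amplification and parity over the 8 epithelial tumours, and by amplification over AC(NST) tumours alone. Points above 0 are higher in the group named first. The ASQC differences lie above 0 for all 7 genes, and the amplification differences of Klk10, Klk8 and Klk6 change sign once the ASQC tumours are left out, where Klk14, Klk13 and Klk7 have no point because too few tumours held 10 reads.

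The 7 genes moved together to different degrees over the 8 epithelial tumours. Between their log2(normalized count + 1) values, Pearson's r lay between 0.43 and 0.97 over 21 pairs, as a description over 8 tumours that share the same libraries. The closest pair was Klk14 and Klk8 (r = 0.97, and the same rank order of tumours), whose starts lie 107 kb apart. Between them lie the members Klk13, Klk11 and Klk10, and also Klk12 and Klk9. Klk14 and Klk8 are the only members that share exonic bases with the antisense gene 2310002F09Rik. Its reads cannot be told apart from theirs in those stretches, and its part in this r was not tested. The loosest was Klk11 and Klk7 (r = 0.43), 36.7 kb apart. Members next to each other, with Klk12 and Klk9 left out of the order, had a median r of 0.81 and the other pairs 0.76. As the genes were chosen for being raised in the same tumours, r between them was in part fixed by that choice. Nothing on distance is read from these medians. Klk7 and Klk6, adjacent at one end of the block, reached 0.92.

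Of the 11 genes beside or within the cluster that are no kallikreins, 1 was higher in both MS1213.1 and MS1155.3 than in the other 3 high-amplified tumours, an arrangement found in 11.6% of the 14007 genes tested and in 6 of the 7 members, which were chosen for it. This gene, the zinc finger gene Zfp658, stood at 158 normalized counts in MS1213.1 and 147 in MS1155.3, against at most 143 in the other 3 high-amplified tumours. Siglece, a receptor of immune cells, was the one flanking gene in which both ASQC tumours (79.5 and 84.7) lay above all AC(NST) (at most 60.7). Zfp719, Zfp819 and Ctu1 before the cluster, Gm10109 within it, and 1700028J19Rik, 2410002F23Rik, Clec11a, Shank1 and 1700008O03Rik after it showed neither arrangement.

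Of 19 further kallikrein genes listed, 12 were in the tables and none passed the count filter, so edgeR tested 0 of them. Among them 4 reached 10 normalized counts in some tumour. Klk12 was at 65.4 and 13.2 in the ASQC tumours MS1210.1 and MS1349.1 and at most 2.49 elsewhere. Klk5, which initiates the cascade in skin by activating Klk7 and Klk14, was at 43.6 and 19.7 in the ASQC tumours and at most 5.55 elsewhere. Klk9 was at 31.6 and 32.9 in the ASQC tumours, 5.78 in MS1213.1, 2.58 in MS1155.3 and 0 in the other 4 epithelial tumours. These 3 genes thus had their highest epithelial levels in the ASQC tumours, like 6 of the 7 members. DESeq2 tested 4 of the 12 and called Klk12 as lower in high-amplified tumours. Klk1b11 was at 12.6 in MS1163.1 and 10.3 in MS1155.3, and since the Klk1b genes are near-identical copies, reads could be lost or split between them. The rest of the cluster, Klk15, Klk1 and the other Klk1b genes, stayed at or under 3.73 in every tumour.

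The cascade around the kallikreins was described with 37 genes, 36 of them in the tables, which gave 26 rows tested. EdgeR called 1 of them between high-amplified and not/low-amplified tumours, beside 0.921% of all genes, and 12 had an unadjusted p under 0.05, beside 3199 of all 14007. DESeq2 called 10 of 32, beside 10.4% of all genes. The one called by edgeR was Spink12, an inhibitor of the Spink family, at 0 in MS1213.1, MS1163.1, MS1163.2 and MS1155.3, 0.926 in MS1218.2, and 324, 542 and 49.96 in MS1210.1, MS1349.1 and MS1166.1 (adjusted p = 0.0175, edgeR's quasi-likelihood test). The not/low-amplified tumours were all above the high-amplified ones, as for 8.04% of the 14007 genes tested. They held 1245 reads against 1, a 1595-fold ratio with a counting interval of 286 to 63007. Each of the 3 not/low-amplified tumours was needed for Spink12 to pass the filter, and with parity in the fit its adjusted p was 0.185.

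Spink5 encodes LEKTI, the inhibitor of Klk5, Klk7 and Klk14 in skin, and is named here after its values were seen. It was at 38.5, 16.8, 52.2, 519 and 103 normalized counts in MS1213.1, MS1163.1, MS1163.2, MS1218.2 and MS1155.3 and at 2682, 1342 and 2292 in MS1210.1, MS1349.1 and MS1166.1. The groups did not overlap, as for 8.04% of the 14007 genes tested in that direction. Unlike for Klk14, Klk7 and Klk6, the AC(NST) MS1166.1 stood with the ASQC tumours. The adjusted p was 0.0782 with edgeR, and DESeq2 called it.

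Of the proteases that can activate kallikreins, 0 of 9 tested were called by edgeR (3 had an unadjusted p under 0.05), and DESeq2 called 3 of 10, Tmprss11d, Tmprss11e and Prss8, beside the same shares of all genes. Tmprss11d, an airway and epithelial serine protease named after its values were seen, was at 3367 and 254 in the ASQC tumours MS1210.1 and MS1349.1 and at 0 in every AC(NST). Tmprss11e, named likewise, was at 741 and 183 in the ASQC tumours, 23.1 in MS1213.1 and at most 7.46 in the others. It passed the filter through the ASQC tumours and MS1213.1 alone. By histotype it was the 1 of 26 cascade rows that edgeR called (5.80 ± 0.78, SE, adjusted p = 0.0230), beside 0.236% of all genes. DESeq2 called 8 of 31 rows higher and 1 lower, beside 1.94% and 1.4% of all genes. Without a filter on low counts edgeR called 6 of 39 higher, beside 167 of 18358 genes. The most abundant were St14 (matriptase), between 3025 and 7751 normalized counts in the epithelial tumours (log2 difference -0.39 ± 0.34), Tmprss13, between 385 and 2287 (-0.73 ± 0.53), and Plau (urokinase), between 353 and 2204 (-0.88 ± 0.58), each with overlapping groups. Of the substrates and receptors 0 of 6 tested were called (3 had an unadjusted p under 0.05), and DESeq2 called 4 of 11, again beside 0.921% and 10.4% of all genes. The thrombin receptor gene F2r lay between 464 and 1853 in the epithelial tumours. F2rl1, which encodes the receptor PAR2 that kallikreins can cleave, lay between 176 and 2197 and was highest in MS1166.1. Dsc1, a desmosomal cadherin cut during shedding of skin cells, was at 594 and 1366 in the ASQC tumours MS1210.1 and MS1349.1, while no AC(NST) exceeded 5.15. It did not pass the filter of the edgeR fit, and was called as lower in high-amplified tumours by DESeq2 and by edgeR without a filter or with at least 10 counts in 2 tumours.

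Summed levels of squamous and basal markers ran with the kallikrein sum over the 8 epithelial tumours (Pearson's r = 0.76 and 0.75 on the log2(sum + 1) scale). This is a description over tumours whose sums share the same libraries. The listed epithelial transcription factors reached 0.66 and brain markers 0.58, so a positive r was not particular to squamous and basal markers. By rank, Spearman's rho was 0.83 for squamous, 0.55 for basal and 0.50 for brain markers. Luminal (0.36), sebaceous (0.31) and salivary (-0.61) markers and the steroid and retinoid receptors (0.29) ran less closely or inversely by Pearson's r. The part of these lists in the result was not tested. The salivary sum was mostly the single gene Aqp5 in the high-amplified tumours. The summed level of 12 markers of stratified squamous keratinocytes reached 31378 in MS1210.1 and 6216 in MS1349.1, against 91.3 to 840 over the 6 AC(NST). MS1155.3 was the highest AC(NST), mostly through Krt6a (419) and Krt16 (254). MS1213.1 summed to 192 and MS1218.2 to 184, with kallikrein sums of 6117 and 571. In MS1213.1, 6 of the 12 markers were at 0 (Krt1, Krtdap, Calm4, Flg2, Sprr1b and Lor), and Sbsn (120), Krt16 (45.3) and Krt6a (15.4) were the 3 above 10. In MS1218.2, Sbsn was at 154, Krt16 at 9.26 and Krt6a at 5.55. No other marker of the list exceeded 8.67 in either tumour, so the near-equal sums rested mostly on Sbsn.

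The 8 basal and myoepithelial markers summed to 58795 in MS1210.1, 13526 in MS1349.1, and 1379 to 15577 over the AC(NST). Krt14, a basal keratin, was at 1703 in MS1213.1 and 1449 in MS1155.3 against 7.35, 38.5 and 242 in MS1163.1, MS1163.2 and MS1218.2, and was at 51708, 5122 and 6495 in MS1210.1, MS1349.1 and MS1166.1. Krt14 was thus higher in the same pair of high-amplified tumours as Klk10, but also high in MS1166.1, where Klk14, Klk7 and Klk6 were low. The other markers of the list differed from it. Krt5 (154 and 1392) and Trp63 (221 and 743) were also raised in MS1213.1 and MS1155.3, but low in MS1166.1 (11.9 and 13.1). Krt17 was highest in MS1166.1 (8476) and Oxtr in MS1213.1 (1942). Acta2 (11087), Myh11 (1455) and Cnn1 (390) were highest in MS1218.2. The 10 luminal markers, which check the labelled tissue, summed to between 46286 and 147976 in the 8 epithelial tumours, with 8 or more of the 10 at 10 normalized counts or above in each. Foxa1 was at 0 in MS1163.1 and Pgr at 1.19 in MS1166.1.

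**Figure D5:**
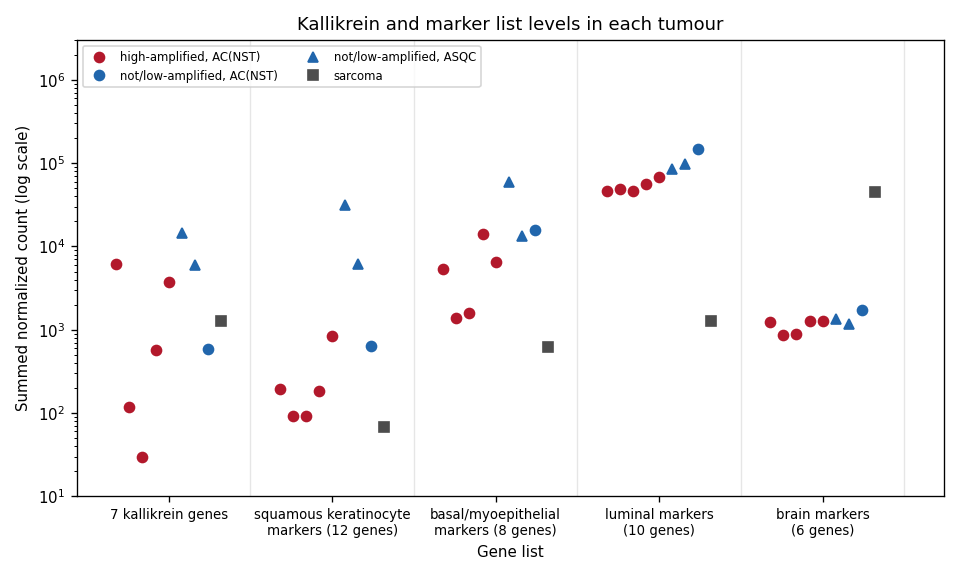
Summed normalized count (log scale) of the 7 kallikrein genes and of 4 lists of marker genes, with 1 point per tumour in the same order within each list. The squamous keratinocyte markers are highest in the 2 ASQC tumours (31378 and 6216), the luminal markers are high in all 8 epithelial tumours and low in the sarcoma (1290), and the brain markers are high in the sarcoma alone (44779).

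Over the 8 epithelial tumours, the genes whose levels were most like the mean of the 7 members, out of 14510 ranked, were Tns4 (Pearson's r = 0.97), Limk2 (0.97), Phyhip (0.97), Tmem40 (0.96), Rabgef1 (0.96), Rfk (0.96), Mlx (0.95), Brinp1 (0.95), Klk9 (0.94) and Lgals7 (0.94). These are the extremes of many genes over 8 tumours and are a description. Tns4, a focal adhesion protein, was at 901, 104, 33.6, 176 and 1009.9 normalized counts in MS1213.1, MS1163.1, MS1163.2, MS1218.2 and MS1155.3 and at 9281, 1365 and 262 in MS1210.1, MS1349.1 and MS1166.1. Like Klk10, it was high in MS1213.1 and MS1155.3 and highest in MS1210.1. Klk9 was the only gene of the cluster among the 10, and Lgals7, a galectin of stratified epithelia, is also on chromosome 7. With Spearman's rho 7 of the 10 reached the 10th highest value when ties were counted, and with 10 in place of 1 added to the normalized count 6 of the 10.

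The sarcoma differed in which kallikreins it held. Klk8 was at 1001.6 normalized counts there (718 reads), above 7 of the 8 epithelial tumours, Klk10 at 239.9 (172 reads) and Klk7 at 15.3 (11 reads). Klk14, Klk13 and Klk6 were at 1.40, 2.79 and 2.79, at or under the limit set by 3 reads, and Klk11 at 0. Klk8 made up 79.2% of the reads on the 7 genes (95% Wilson interval 76.5 to 81.8), against at most 16.7% in any epithelial tumour. Klk9, which lies between Klk10 and Klk8, was at 562 (403 reads), or 0.561 reads per Klk8 read, against at most 0.103 in any epithelial tumour. The reads in the sarcoma thus lay mostly on 3 adjacent genes, Klk10, Klk9 and Klk8.

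Beyond the far end of the cluster, Shank1 stood at 463 in the sarcoma against at most 94.9 in the epithelial tumours, and Clec11a at 552 against at most 585. As the sarcoma was a single tumour, none of its differences could be set against a spread between replicates. Its luminal markers summed to 1290, with Epcam at 53.0 and Krt8 at 176. The brain marker list summed to 44779 there, with Mbp, a myelin gene, at 14804 and Gfap, an astrocyte gene, at 1056, against sums between 859 and 1719 in the epithelial tumours. Of its neuronal markers, Syp was at 322, against at most 21.3 in the epithelial tumours, while Snap25 was at 2.79 and Rbfox3 at 0. The part of these cells in the Klk8 level was not tested.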

How the data were processed

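The authors aligned ribosome-depleted RNA-seq reads with STAR to mouse build 38 (unique reads, at most 3 mismatches) and counted them per gene with HTSeq. The deposited read counts are raw, and the deposited signal values of the epithelial tumours equal those counts divided by 1 DESeq2 size factor per tumour (0.776 to 1.42), here called normalized counts. The sarcoma, which has counts only, was scaled to the same 8 tumours. The HTSeq strand option is not given in the sources used here. Of 19 further kallikrein genes listed, the 7 without a row were not analysed here.

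Counts were tested with edgeR 4.0.16 (TMM, quasi-likelihood, R 4.3.3) on the 14007 genes that reached 10 counts in 3 or more of the 8 tumours, with Benjamini-Hochberg adjustment and a call at an adjusted p under 0.05 and over 2-fold. DESeq2 1.42.0, other filters and scalings, parity in the fit, AC(NST) alone, the MS1163 tumours summed and leaving out each tumour were alternatives. Fits were tested on simulated data. Positions are from GENCODE M21.

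Members and lists were chosen with earlier results of these data known. Named genes were the members, further kallikreins reaching 10 normalized counts, 5 genes on each side and any within the cluster, of each cascade list the genes called or else the 3 with the highest mean, the 10 most similar genes, and of the other lists their sums, genes at 0 and highest members. Tumours were the replicates, 1 library each, and p-values measure the spread between them.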

Additional observations from a re-analysis of the deposited data

Results flagged for a closer look

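In groups of 5 or 6 tumours, a tumour was picked out where its gap to the nearest other, over the group's range, passed Dixon's 95% critical value. Of 21 groups checked 4 were picked out. The nominal rate of 1 in 20 assumes normally distributed values and separate groups. It does not apply here, because the values were unlogged counts, the groups shared tumours and the genes were chosen by their levels. The members were chosen for high levels in MS1213.1 and MS1155.3, so the values of Klk13, Klk11 and Klk8 below are a description and not a test. Klk13 in MS1213.1, at 255 normalized counts, stood apart both among the 5 high-amplified tumours and among the 6 AC(NST), the next being MS1155.3 at 5.15. Klk11 in MS1213.1, at 90.5, stood apart among the 5 high-amplified tumours, the next being MS1155.3 at 21.9. Klk8 in the ASQC tumour MS1210.1, at 1689, stood apart among the 5 parous tumours, the next being MS1349.1 at 320.0.

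The sarcoma entered no comparison, and 4 kallikreins there lay above the limit that a count of 0 allows (4.19 normalized counts): Klk10 at 239.9, Klk8 at 1001.6, Klk7 at 15.3 and Klk9 at 562. With 1 sarcoma, no difference from the epithelial tumours was tested.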

How the results depend on the processing

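No paired analysis was possible because the labels carry no replicate numbers that pair the groups. Of the members' amplification differences, 98 kept their direction and call under the alternatives, 2 became calls and 6 reversed. Klk13 turned to -3.90 with parity in the fit, and its leave-one-out range was -0.054 to 0.83, with -0.054 without MS1166.1; it could be fitted in 5 of 8 such fits. Klk10 ranged from -2.02 to 0.51 when 1 tumour was left out, with 0.51 without MS1210.1. Within AC(NST) alone Klk10 was at 1.92, Klk8 at 0.78 and Klk6 at 4.40. No histotype difference reversed (93 kept, 5 became calls), but without MS1210.1 Klk8 fell from 4.55 to 2.88, Klk10 from 1.68 to 0.37 and Klk11 from 2.18 to 0.55, and by amplification Klk8 moved from -3.87 to -1.89 and Klk11 from -2.54 to -1.69.

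Members called were 0 in the edgeR fits by amplification, histotype and parity, and 0 in every leave-one-out fit. DESeq2 called 2, 2 and 1. By histotype edgeR called 2 without a filter (167 of all genes higher and 4 lower) and 1 with at least 10 counts in 2 tumours (146 and 3, against 31 and 2 in the fit reported). Of the other kallikreins DESeq2 called 1, where edgeR called 0. Over all genes, edgeR and DESeq2 called 129 and 1587 by amplification, 33 and 518 by histotype, and 0 and 511 by parity. With the tumours of mouse MS1163 summed, edgeR called 18 genes higher and 13 lower by amplification, against 61 and 68. Cascade genes called by amplification were 1 with edgeR, 10 with DESeq2, 3 without a filter, 2 with at least 10 counts in 2 tumours, and 0 with parity in the fit or within AC(NST) alone. Leaving out 1 tumour gave 0 to 4: 4 without MS1218.2, 2 without MS1213.1 or MS1166.1, and 0 without MS1210.1 or MS1349.1. Without any of the 3 not/low-amplified tumours, Spink12 had too few tumours with 10 counts to be tested. Scaling the sarcoma over 9 tumours gave Klk8 965, Klk10 231 and Klk7 14.8. Depth limits Klk13, Klk11 and Klk7 in tumours with 0 reads.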

Other observations

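Of 20 epithelial transcription factors listed, 19 were in the tables and 16 were tested by amplification. EdgeR called 2, both lower in high-amplified tumours, beside 0.921% of all genes. Of the 16, 8 had an unadjusted p under 0.05, as had 3199 of all 14007 genes, and DESeq2 called 6 of 14, beside 10.4% of all genes. Grhl3, a Grainyhead factor of stratified epithelia, was at 5.78, 4.20, 9.94, 2.78 and 43.8 normalized counts in MS1213.1, MS1163.1, MS1163.2, MS1218.2 and MS1155.3 and at 814, 549 and 127 in MS1210.1, MS1349.1 and MS1166.1 (log2 difference -5.24 ± 0.93, SE, adjusted p = 0.0389 with edgeR's quasi-likelihood test). Ovol1, a zinc finger factor of differentiating epidermis, lay between 47.2 and 151 in the high-amplified and between 377 and 769 in the not/low-amplified tumours (-2.45 ± 0.43, adjusted p = 0.0362 with edgeR). The groups did not overlap for either gene, an arrangement that 8.04% of the 14007 genes tested showed in that direction. The call was lost under 7 of 15 alternatives for Grhl3 and 9 of 16 for Ovol1, all in the same direction. Among these were the fits without MS1210.1 (adjusted p = 0.127 and 0.135 with edgeR), with the tumours of mouse MS1163 summed (0.0832 and 0.0669) and with parity as a term (0.224 and 0.199). By histotype edgeR called 0 of the 16, beside 0.236% of all genes, with 7 at an unadjusted p under 0.05, beside 1221 of all 14007. DESeq2 called 0 of 13, beside 3.34% of all genes.

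Of 8 steroid and retinoid receptor genes, edgeR called 0 by amplification, beside 0.921% of all genes. An unadjusted p under 0.05 was seen for 2 of them, as for 3199 of all 14007 genes. DESeq2 called 1 of the 8, Rarb, as lower in high-amplified tumours, beside 10.4% of all genes, 4.51% lower. Salivary gland markers summed to between 2592.5 and 20640 in the high-amplified and between 488 and 1484.5 in the not/low-amplified tumours. Most of the sum in the high-amplified tumours was Aqp5 (1972 to 17975), while Smr2, Smr3a and Bpifa2 stayed at or under 5.25 in the epithelial tumours. EdgeR called 0 of 6 tested. DESeq2 called 3 of 7 as higher in high-amplified tumours (Dcpp2, Dcpp1 and Aqp5), beside 10.4% of all genes, 5.94% higher. Sebaceous gland markers summed to between 16565 and 56940 over the 8 epithelial tumours.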
